A study of Mus musculus with 2 samples.

Results

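The 87 olfactory receptor (OR) genes on mouse chromosomes 14 and 16 were placed on a map of chromosome domain boundaries. The rule that chose them used position and name, and it was set with earlier results of these data known. It took every gene of the GENCODE M21 annotation (GRCm38) whose symbol is Olfr followed by a number and that lies on either chromosome. They are 87 of the 1407 such genes on the autosomes and the X chromosome, with 42 on chromosome 14 and 45 on chromosome 16. Of the 42, 40 are annotated as protein-coding and 2 as unprocessed pseudogenes. Of the 45, 36 are annotated as protein-coding, 6 as unprocessed, 2 as polymorphic and 1 as transcribed unprocessed pseudogenes.

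The map came from in situ Hi-C, which ligates neighbouring pieces of chromatin and reads which loci touch, on mature olfactory sensory neurons. The cells were sorted by fluorescence from the olfactory epithelium of adult P2-GFP mice of the strain 129P2/OlaHsd, both sexes mixed and without treatment, and expressed the receptor gene Olfr17, also called P2. There was 1 group with 2 biological replicates of 23000 and 20000 cells, fixed in 1% formaldehyde and digested with DpnII, and the boundaries were called on both replicates combined. There is therefore 1 list, no other cell type and no spread between replicates, and the number of contacts behind it is unknown. Because the cells were chosen for Olfr17, which is on neither chromosome, the map says nothing of neurons that use one of the 87 genes. The data hold no expression values, so the identity of the sorted cells was not checked against marker genes.

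OR genes encode the odorant receptors of the nose. Each mature sensory neuron expresses 1 of them from 1 allele, and the silent remainder is packed into heterochromatin. The genes lie in tandem clusters that grew by local duplication, together with pseudogenes and enhancers that act across chromosomes. Loci on opposite sides of a domain boundary touch less often than loci on the same side, and many boundaries in mammals are held by the DNA-binding protein CTCF and the ring complex cohesin. Olfr1507, also known as MOR28, is among the best studied OR genes because it lies next to the H element, an OR enhancer on the side of the T cell receptor alpha locus.

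The list held 7576 boundaries, each a bin of 5 kb with a class, Strong or Weak, and a score. The score has no stated unit and was compared only within the list, where every Weak boundary scored below every Strong one. Chromosome 14 had 306 boundaries and chromosome 16 had 265. Distances below run from the annotated transcription start site (TSS) of a gene to the midpoint of the bin. A percentile gives the share of the list with a score at or below the one named.

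Neighbouring OR genes with TSSs under 500 kb apart formed 9 runs. The 4 runs of at least 5 genes are called clusters, and they held 77 of the 87 genes. On chromosome 14 these were Olfr722 to Olfr750 with 29 genes in 1180 kb, and Olfr221 to Olfr1507 with 8 genes in 462 kb. On chromosome 16 they were Olfr164 to Olfr171 with 8 genes in 346 kb, and Olfr172 to Olfr209 with 32 genes in 604 kb. A group of 3 (Olfr720, Olfr31 and Olfr721-ps1), a group of 4 (Olfr161, Olfr162-ps1, Olfr163-ps1 and Olfr15) and the lone genes Olfr49, Olfr277-ps1 and Olfr19 made up the rest.

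The sequence around the boundaries of these runs is shown first, because the core CTCF consensus is the sequence pattern best known from boundaries. An exact search of both strands within 10 kb found it at 13 of the 27 boundaries that flank or lie inside a run (48.1%), compared with 58.0% of all boundaries in the list. The matches below are those at the boundary beside Olfr1513, at the high-scoring boundary after Olfr749, at the boundary beyond Olfr750 and at the boundary in Olfr15. Each line reads 5′ to 3′ on the strand of the match in GRCm38, with the 12 consensus bases in capitals and 14 bases on either side.
Olfr1513 boundary, chr14:52343765-52343804, minus strand: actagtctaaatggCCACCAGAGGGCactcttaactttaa
Olfr1513 boundary, chr14:52354870-52354909, plus strand: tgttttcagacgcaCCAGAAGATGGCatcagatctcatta
Olfr1513 boundary, chr14:52357091-52357130, plus strand: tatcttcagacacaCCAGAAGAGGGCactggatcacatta
Olfr749 boundary, chr14:50771571-50771610, minus strand: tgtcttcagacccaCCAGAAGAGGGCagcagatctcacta
Olfr749 boundary, chr14:50774158-50774197, minus strand: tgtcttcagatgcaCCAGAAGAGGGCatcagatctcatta
Olfr750 boundary, chr14:51103502-51103541, plus strand: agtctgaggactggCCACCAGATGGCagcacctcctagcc
Olfr15 boundary, chr16:3848569-3848608, plus strand: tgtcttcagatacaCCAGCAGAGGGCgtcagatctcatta

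The first and the Olfr750 match also met a stricter 14-base form of the consensus and lay outside repeats as marked by lower case in the reference. The other 5 lay in marked repeats, and their flanks resemble each other. Over the 27 boundaries there were 22 matches, of which 15 (68.2%) lay in marked repeats and 13 (59.1%) had the single form CCAGAAGAGGGC. All 13 of that form were in marked repeats. The stricter form was met at 3 of the 27 boundaries (11.1%), compared with 13.8% of the list. The same form made up 54.8% of the 8861 matches at all boundaries of the list, and 66.7% of those matches lay in marked repeats. A match is a string of letters and not a measurement of CTCF binding. An exact search also misses sites that differ from the consensus, so a boundary without a match may still have a CTCF site.

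The 87 genes lay at a median of 67.3 kb from the nearest boundary, between 0.361 kb for Olfr185-ps1 and 293 kb for Olfr164. Of the 87, 32 (36.8%) had a boundary within 50 kb, compared with 25.5% of the 1320 OR genes on other chromosomes and 26.2% of all OR genes. Within 25 kb it was 16 genes (18.4%, against 11.4% of OR genes elsewhere, 22.8% of other genes on the same chromosomes and 23.9% of all protein-coding genes), and within 100 kb it was 63 (72.4%, against 49.2%, 64.7% and 72.4%). All OR genes stood at 11.8% and 50.6% for these distances, and 43.2% of all protein-coding genes had a boundary within 50 kb. Among the 1490 protein-coding genes outside the family on chromosomes 14 and 16 the share was 40.1%, and their median distance was 67.0 kb. The OR genes of other chromosomes lay farther out, at a median of 102 kb. Only Olfr164 of the 87 (1.15%) lay more than 200 kb from a boundary, against 279 of the 1320 OR genes elsewhere (21.1%). Beyond that distance were 253 of the 1490 other protein-coding genes on chromosomes 14 and 16 (17.0%) and 8.57% of all protein-coding genes. The 87 distances were set by 18 boundaries, since genes of a run share them, so these shares are descriptions of 1 map and were not tested.

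**Figure D1:**
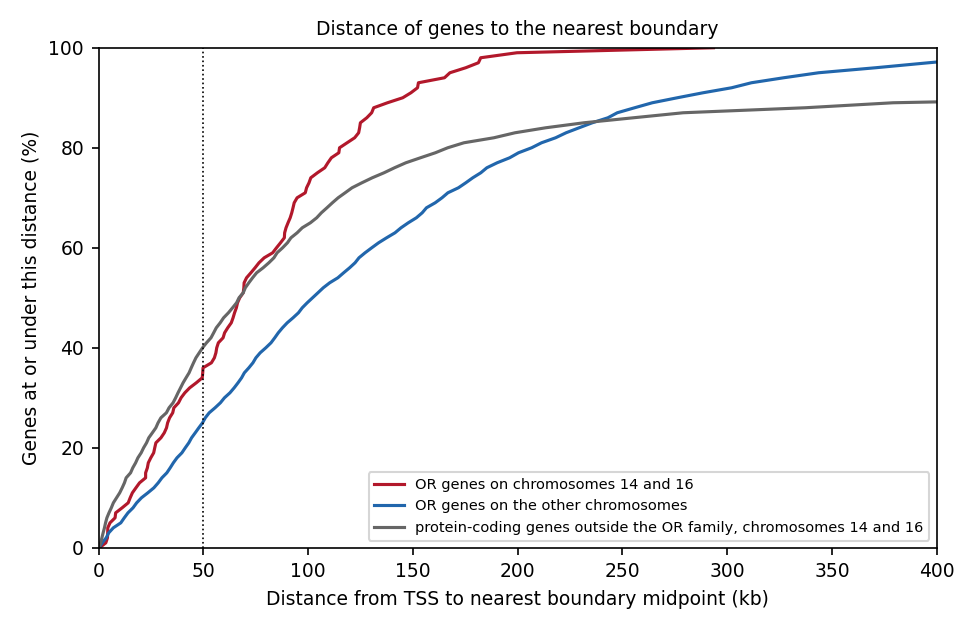
Cumulative share of genes (y axis, percent) against the distance from TSS to the nearest boundary midpoint (x axis, kb), for the 87 OR genes on chromosomes 14 and 16 (red), the 1320 OR genes on other chromosomes (blue) and the 1490 other protein-coding genes on chromosomes 14 and 16 (grey). At the dotted line at 50 kb the shares are 36.8%, 25.5% and 40.1%.

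The boundaries cut the members into 18 intervals, 16 of them closed by a boundary on both sides. Of all 7556 closed intervals of the map, 135 (1.79%) held an OR gene. Of the 87 genes, 72 lay in 7 intervals of at least 5 OR genes, and 8 genes were the only OR gene of theirs. Intervals of at least 5 OR genes were 7 of 18 here (38.9%) and 72 of 120 on other chromosomes (60%), and closed intervals with OR genes held a median of 2 here and 8 elsewhere. The 8 single genes were Olfr721-ps1, Olfr750, Olfr221, Olfr49, Olfr277-ps1, Olfr15, Olfr19 and Olfr172. On other chromosomes 28 of 120 intervals with OR genes held 1 such gene (23.3%), compared with 8 of 18 here (44.4%). In 9 of the 18 intervals, holding 68 of the 87 genes, no other protein-coding gene had its TSS, compared with 35 of 120 intervals elsewhere (29.2%). Among the 9 is the interval of Olfr1513 to Olfr1507, whose 134 T cell receptor gene segments are not annotated as protein-coding. Also among them is the interval of Olfr161 to Olfr163-ps1, which is open at the chromosome start. The 16 closed intervals had a median length of 312.5 kb, close to the 310 kb of OR intervals on other chromosomes, and all closed intervals had a median of 260 kb.

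**Figure D2:**
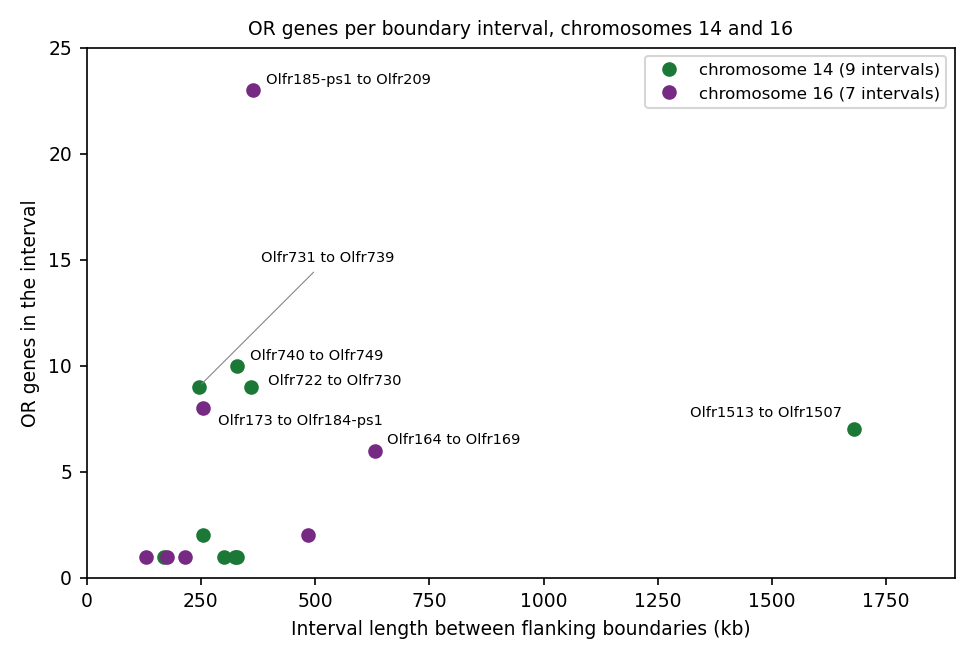
Number of OR genes (y axis) against the length of the interval between flanking boundaries (x axis, kb) for the 16 closed intervals, with chromosome 14 in green and chromosome 16 in purple. The interval of Olfr185-ps1 to Olfr209 held 23 genes in 365 kb, and the interval of Olfr1513 to Olfr1507 held 7 genes in 1680 kb.

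On chromosome 14, the cluster of Olfr722 to Olfr750 (chr14:49894258-51074435) was divided by 4 boundaries. The first 28 of its 29 genes filled 3 successive intervals of 9, 9 and 10 OR genes, and Olfr750 stood apart from them. The left flank was a Strong boundary of score 1.13, 69.5 kb before the TSS of Olfr722, and its nearest other gene was Armh4 at 49.1 kb. The first interval, of 360 kb, held Olfr722 to Olfr730 and no other protein-coding gene, and 8 of its 9 OR genes are on the minus strand. Olfr725 lay deepest in it, at 152 kb from the nearest boundary.

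The first boundary inside the cluster was Weak, with a score of 0.270. It fell 4.30 kb from the TSS of Olfr730 and 49.4 kb from that of Olfr731. The interval after it, of 245 kb, held Olfr731 to Olfr739 and also Tlr11, an innate immune receptor that recognises a parasite protein. The second inside boundary, also Weak with a score of 0.351, lay in the 26.9 kb between the TSSs of Olfr739 and Olfr740, 8.05 kb from Olfr740. The third interval, of 330 kb, held Olfr740 to Olfr749, where 8 of the 10 genes are on the plus strand. Olfr744 was the farthest gene of the cluster from any boundary, at 153 kb. Of 100-base reads cut from the reference, 74.2% aligned uniquely over this interval, compared with 86.8% over the chromosome, and the part of read uniqueness in these calls was not tested.

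The third inside boundary was Strong and scored 2.37, rank 113 of 7576. It lay 22.4 kb from the TSS of Olfr749 and its bin overlapped Ttc5, which encodes a cofactor of p53. Olfr749 was the last OR gene before it. Past it came other genes and a further Strong boundary of score 0.504 at Pnp, the purine nucleoside phosphorylase gene. Olfr750 lay 307 kb from the high-scoring boundary, in an interval of 170 kb shared with 8 other protein-coding genes, among them Pnp2 and the secreted ribonuclease genes Rnase4, Rnase9, Rnase10, Rnase11, Rnase12 and Ang. The Weak boundary that closed this interval, with a score of 0.260, lay 33.1 kb from Olfr750, and Eddm3b was its nearest other gene.

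**Figure D3:**
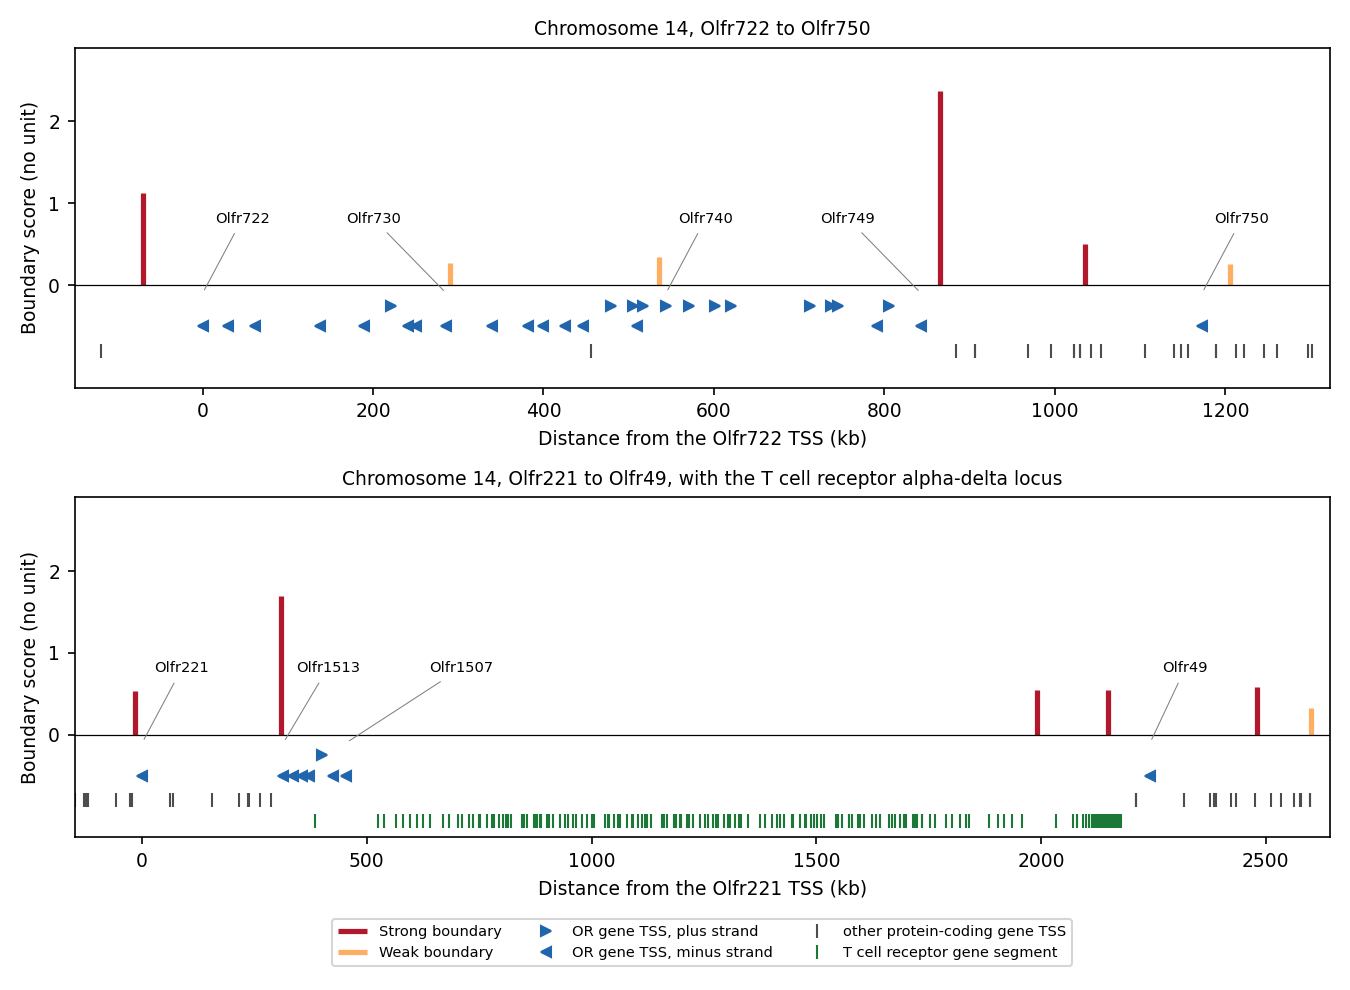
Boundary scores (y axis, no unit) and gene starts along chromosome 14 (x axis, kb from the first TSS), for Olfr722 to Olfr750 above and Olfr221 to Olfr49 below. Bars are boundaries (red Strong, orange Weak), triangles OR genes by strand, black ticks other protein-coding genes and green ticks T cell receptor gene segments. The bar of 2.37 follows Olfr749 and the bar of 1.70 stands at Olfr1513, after which no boundary was called for 1680 kb.

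The second cluster of chromosome 14, Olfr221 to Olfr1507 (chr14:52033962-52495749), was split by 1 Strong boundary into Olfr221 and the 7 genes Olfr1513 to Olfr1507. Olfr221 lay 15.0 kb inside a Strong boundary of score 0.534 near Zfp219, a zinc-finger gene. Its interval of 325 kb held 8 other protein-coding genes, including Hnrnpc, Supt16, Chd8, Mettl3 and Sall2, which encode an RNA-binding protein, a histone chaperone subunit, a chromatin remodeller, an RNA methyltransferase and a transcription factor. The boundary at the far end of that interval (chr14:52350001-52355000) scored 1.70 (percentile 93.1) and its bin overlapped the body of Olfr1513. Its midpoint was 3.91 kb from the TSS of Olfr1513 and 23.7 kb from that of Sall2. This boundary carried the strict CTCF match printed above, at -8.72 kb from its midpoint.

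To the right of that boundary the OR genes came in order of distance, at 26.7 kb for Olfr1512, 44.9 kb for Olfr1511, 61.9 kb for Olfr1510 and 90.5 kb for Olfr1509. Olfr1508 lay at 115 kb and Olfr1507 at 143 kb, with Olfr1509 the single gene of the 7 on the plus strand. All 7 shared 1 interval of 1680 kb with 134 variable (V) gene segments of the T cell receptor alpha and delta loci, from Trav1 to Trdv3, and with no other protein-coding gene. The V segment Trav1 lies among the receptors, 13.6 kb from the TSS of Olfr1510 and 15.1 kb from that of Olfr1509. The interval ranked 40th in length among 7556 closed intervals. V segments are the pieces that developing T cells join to D, J and constant segments to build a receptor chain.

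Read uniqueness differed along this interval. It was 89.9% over the 143 kb from the boundary to Olfr1507 and 53.7% over the 1537 kb from Olfr1507 to the next boundary, where 133 of the V segments lie. The part of read uniqueness in the absence of called boundaries there was not tested. The interval that follows, of 160 kb, held 2 V, 2 diversity (D), 37 joining (J) and 1 constant (C) segment and no OR gene, and both its boundaries were Strong with scores of 0.550 and 0.553.

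Olfr49 (chr14:54278253-54284939) lies on the other side of the T cell receptor locus. Its interval of 330 kb held the last 25 J segments and the constant gene Trac, whose TSS lies 64.4 kb from that of Olfr49. The same interval held 9 other protein-coding genes, the nearest being Dad1 at 30.8 kb, a broadly expressed gene of protein glycosylation. The Strong boundary on the left scored 0.553, had Traj25 to Traj29 in its bin and lay 92.4 kb from Olfr49. The Strong boundary on the right scored 0.589, at 238 kb, and lay 4.98 kb from Prmt5, an arginine methyltransferase gene. The list's median score was 0.545. Olfr49 and Olfr1507 were separated by 2 boundaries.

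Leftmost on the chromosome, Olfr720, Olfr31 and Olfr721-ps1 formed a loose group (chr14:14171738-14410095). The Strong boundary to their left had the highest score beside any member, 2.42, rank 99 of 7576, and lay 1.52 kb from Psmd6, a proteasome subunit gene. Olfr720 lay 64.3 kb from it. Olfr720 and Olfr31 shared an interval of 255 kb with Il3ra, a cytokine receptor gene. A Strong boundary of score 0.944 separated Olfr31, at 54.7 kb, from Olfr721-ps1, at 23.8 kb. Olfr721-ps1, annotated as protein-coding despite its name, was the only protein-coding gene of its 300 kb interval, which ended at a Weak boundary of score 0.340 with Slc4a7, a bicarbonate transporter gene, as the nearest other gene.

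Olfr277-ps1, a pseudogene near the end of chromosome 14 (chr14:124589055-124589339), lay 182 kb from a Weak boundary of score 0.224. That boundary lies within Fgf14, a gene of a fibroblast growth factor homologous protein that acts on sodium channels in neurons. The TSS of Fgf14 is in the same interval as Olfr277-ps1, 270 kb from the boundary, so Olfr277-ps1 lies within the span of Fgf14. No boundary was called between Olfr277-ps1 and the chromosome end, and 100000 of the bases there are unsequenced. Its interval is therefore open on the right.

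On chromosome 16, Olfr161, Olfr162-ps1, Olfr163-ps1 and Olfr15 are all on the plus strand (chr16:3591042-3844747). The first 3 lay before the first boundary of the chromosome, a Weak one of score 0.269, at 76.5, 65.6 and 49.6 kb. Their interval is open on the left, where 3050000 bases are unsequenced. Olfr15 was separated from them by this boundary and lay 163 kb beyond it, with Mefv, the gene of the inflammasome protein pyrin, and the zinc-finger gene Zfp263 in the same 175 kb interval. The interval ended at a Strong boundary of score 0.914 (chr16:3840001-3845000) whose midpoint lies inside the body of Olfr15, 11.6 kb downstream of its TSS and 4.77 kb from Zfp174. The core CTCF match printed above for Olfr15 lies 6.09 kb past that midpoint. The next boundary on the right was Strong, scored 1.32 and lay 18.5 kb from Crebbp, a histone acetyltransferase gene.

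Olfr19 (chr16:16672228-16676405) was a lone gene and the only protein-coding gene with a TSS in its 215 kb interval. Both flanking boundaries were Strong, with a score of 0.595 on the left at 63.9 kb and 1.22 on the right at 151 kb. Their nearest other genes were Fgd4, which encodes a guanine nucleotide exchange factor, and Spag6l, a gene of the sperm flagellum, at 1.96 kb. Neither boundary had a core CTCF match within 10 kb.

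The cluster of Olfr164 to Olfr171 (chr16:19284104-19629916) had 1 boundary inside it and lay far from the boundaries outside it. Olfr164 was 337 kb from the Strong boundary on its left, which scored 1.97 (percentile 96.1) and had the histone chaperone gene Hira as its nearest other gene at 100 kb. On the right, Olfr171 was 463 kb from the next outer boundary, a Weak one of score 0.292 near Klhl24. The interval of Olfr164 to Olfr169 was 630 kb long (percentile 91.0 of closed intervals) and held no other protein-coding gene. In it Olfr165 lay at 184 kb, while the genes after it lay nearer to the inner boundary, down to 35.7 kb for Olfr169.

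The inner boundary was Strong, scored 0.796 and had the body of Olfr170 in its bin (chr16:19605001-19610000). It lay 4.38 kb from the TSS of Olfr170 and 22.4 kb from that of Olfr171, so that these last 2 genes shared an interval of 485 kb with Lamp3, B3gnt5 and Klhl6. Lamp3 encodes a lysosomal membrane protein. Within 50 kb of it 72.5% of such reads aligned uniquely, the lowest share among the 27 boundaries, which ranged up to 99.5%. The part of read uniqueness in this call was not tested. No core CTCF match lay within 10 kb.

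The cluster of Olfr172 to Olfr209 (chr16:58759544-59363993) held 32 genes, 29 of them on the minus strand, and no TSS of another protein-coding gene. A Strong boundary of score 1.18 (chr16:58765001-58770000) lay 4.32 kb from the TSS of Olfr172 and 32.8 kb from that of Olfr173. It cut Olfr172 off from the other 31 genes and left it in a short interval of 130 kb with E330017A01Rik, Cpox, Gpr15 and Cldnd1. Cpox encodes an enzyme of haem synthesis and Gpr15 a lymphocyte homing receptor. That interval began at a Weak boundary of score 0.358 beside E330017A01Rik, 126 kb from Olfr172.

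The next interval, of 255 kb, held the 8 genes Olfr173 to Olfr184-ps1. A Weak boundary of score 0.354 ended it. This boundary's bin contained the TSS of Olfr185-ps1, at 0.361 kb the smallest distance among the 87 genes and the one TSS of a member inside a boundary bin. Olfr184-ps1 lay 15.1 kb to its left. The 23 genes from Olfr185-ps1 to Olfr209 then shared 1 interval of 365 kb, at 6.30 OR genes per 100 kb, the 8th highest density among closed intervals of the genome and the 19th highest number. Olfr198, at 181 kb, and Olfr199, at 168 kb, lay nearest its middle.

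The right end of the cluster was a Strong boundary of score 2.15, rank 193 of 7576 (chr16:59385001-59390000). It lay 23.5 kb from the TSS of Olfr209 and 19.8 kb from Gabrr3, a gene of a GABA receptor subunit. None of the 4 boundaries that flank or divide this cluster had a core CTCF match within 10 kb, the one of 2.15 included.

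**Figure D4:**
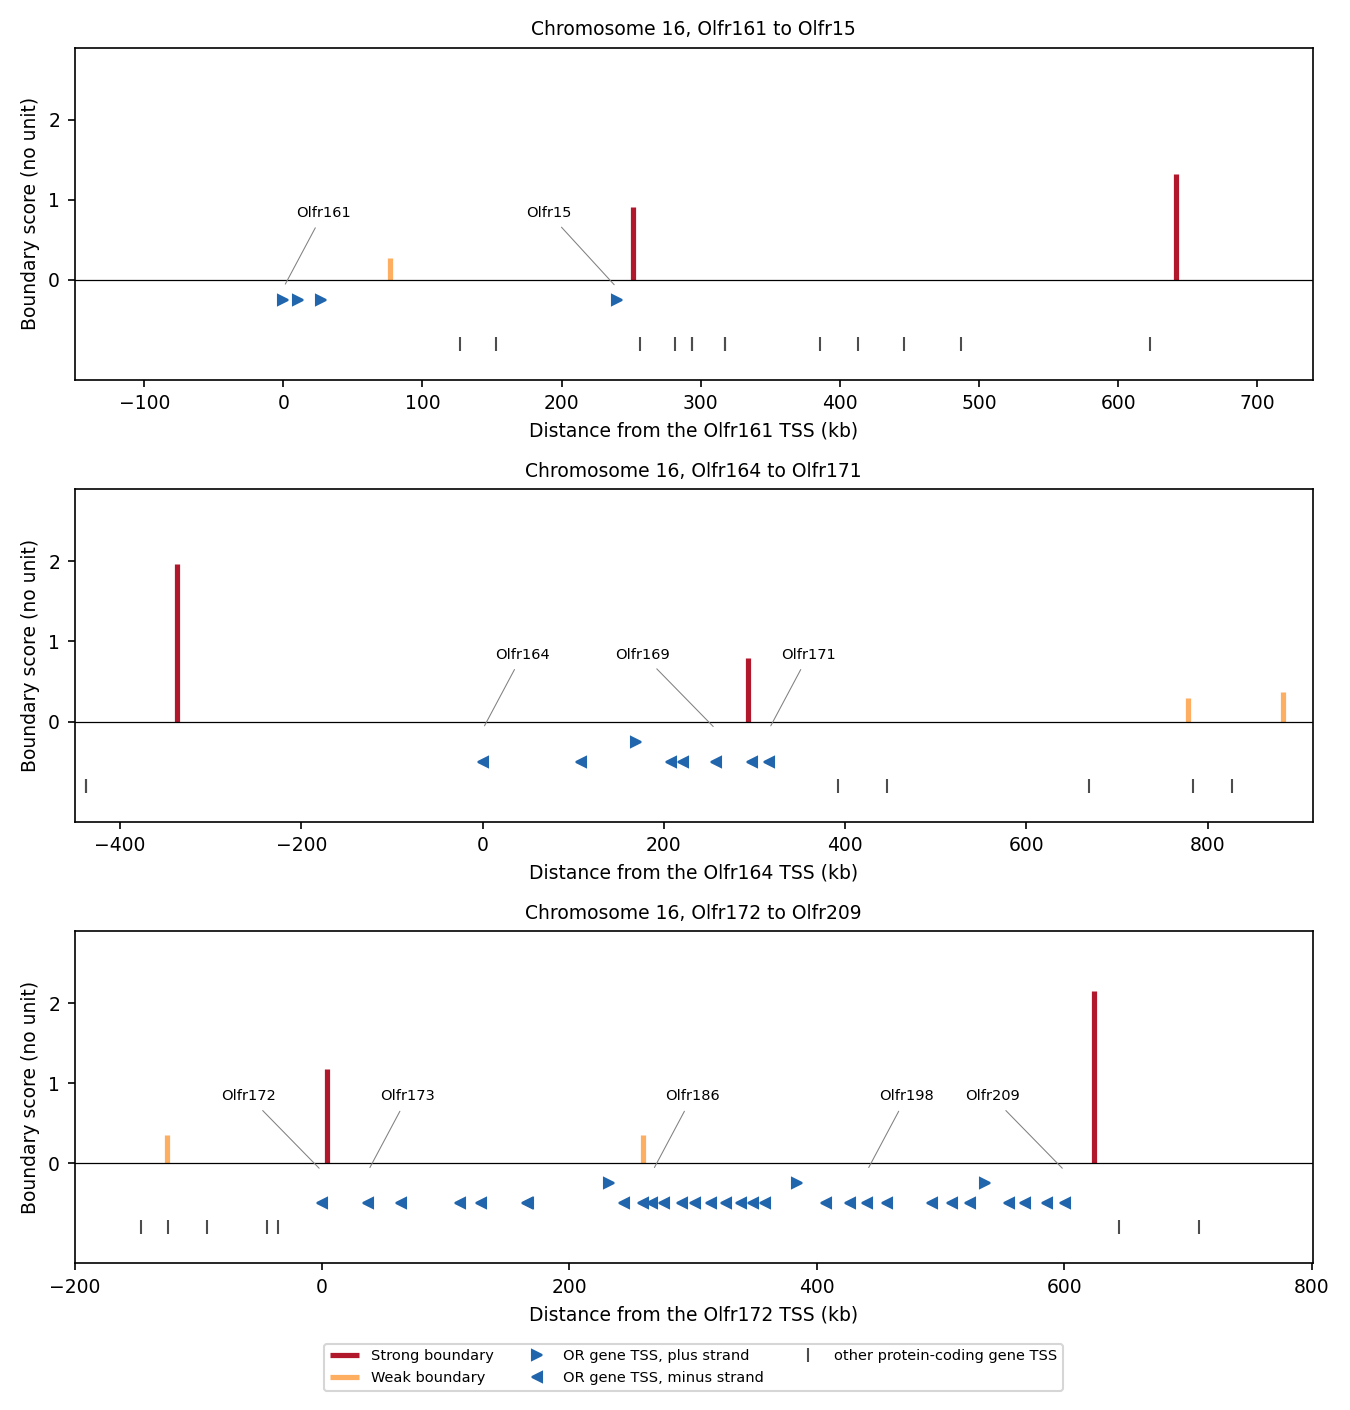
Boundary scores (y axis, no unit) and gene starts along chromosome 16 (x axis, kb from the first TSS), for Olfr161 to Olfr15, Olfr164 to Olfr171 and Olfr172 to Olfr209. Bars are boundaries (red Strong, orange Weak), triangles OR genes by strand and black ticks other protein-coding genes. A bar stands beside Olfr15 (0.914), between Olfr169 and Olfr170 (0.796), between Olfr172 and Olfr173 (1.18) and after Olfr209 (2.15).

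Across the 4 clusters, 5 of the 8 edges had a boundary within 50 kb (62.5%, exact binomial 95% interval 24.5 to 91.5%, counting error only), compared with 39 of 60 edges of OR clusters elsewhere (65%). The 5 were the right edges at Olfr750, Olfr171 and Olfr209 and the left edges at Olfr221 and Olfr172. At Olfr171 and Olfr172 the near boundary lay inside the cluster, not beyond it. Olfr722, Olfr1507 and Olfr164 had no boundary within 50 kb of the edge. A core CTCF match was found at 2 of the 5 edge boundaries, those beside Olfr750 and Olfr221.

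Inside the 4 clusters there were 8 boundaries, or 3.09 per Mb, of which 5 were Strong (62.5%). Their median score was 0.650. OR clusters on other chromosomes had 66 boundaries inside, or 2.35 per Mb, of which 22 were Strong (33.3%), with a median score of 0.381. Of all boundaries in the list, 53.4% were Strong. The clusters here were also more sparsely filled, at 2.97 OR genes per 100 kb against 4.54 elsewhere, and 3 of the 5 Strong ones lay where other genes come between the receptors: after Olfr749, at Pnp and beside Olfr1513. The TSSs of Olfr749 and Olfr750 lie 329 kb apart. Under a limit of 250 kb between neighbours, the boundaries after Olfr749 and at Pnp therefore fall outside, and 6 boundaries lie inside. The differences rest on 8 boundaries, depend in part on the cluster rule and were not tested.

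Each of the 9 boundary-split pairs of neighbouring OR genes was transcribed in the same direction. Same-strand neighbours were common in general, with 20 of 28 pairs in Olfr722 to Olfr750, 25 of 31 in Olfr172 to Olfr209 and 5 of 7 in each of the other clusters. In the small groups they were 1 of 2 pairs in Olfr720 to Olfr721-ps1 and 3 of 3 in Olfr161 to Olfr15. These counts include the split pairs, and the difference was not tested. Of the 87 genes, 51 (58.6%) were transcribed toward their nearest boundary, compared with 54.9% of other OR genes and 46.6% of other protein-coding genes on the 2 chromosomes.

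In 2 of the split pairs the genes on either side of a Strong boundary had a long identical stretch before their TSSs. The stretch was 63 bases in Olfr169 and Olfr170 and 61 bases in Olfr172 and Olfr173, within 250 bases upstream. These are shown because neighbours that share upstream sequence lay in different intervals, and they were singled out after their values were seen. Repeats are not marked in the lines below, and whether the shared stretches lie in repeats was not tested. Marked repeats made up 55.9% of the bases of Olfr164 to Olfr171 and 50.7% of those of Olfr172 to Olfr209. Each line gives 100 bases of GRCm38, 5′ to 3′ on the minus strand on which the gene lies, with the shared stretch in capitals.
Olfr169, chr16:19571956-19572055: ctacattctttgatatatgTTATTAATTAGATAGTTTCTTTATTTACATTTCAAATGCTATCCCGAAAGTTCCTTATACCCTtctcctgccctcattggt
Olfr170, chr16:19611952-19612051: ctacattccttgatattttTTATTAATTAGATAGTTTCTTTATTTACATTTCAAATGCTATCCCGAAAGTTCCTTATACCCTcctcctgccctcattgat
Olfr172, chr16:58763236-58763335: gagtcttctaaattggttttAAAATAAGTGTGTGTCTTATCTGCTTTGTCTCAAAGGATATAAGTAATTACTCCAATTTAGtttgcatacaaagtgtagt
Olfr173, chr16:58800336-58800435: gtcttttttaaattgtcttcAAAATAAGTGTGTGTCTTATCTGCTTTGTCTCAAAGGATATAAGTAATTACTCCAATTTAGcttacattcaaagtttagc

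The other 7 split pairs shared at most 19 bases, and the median over the 9 was 8 bases. Of the 69 neighbouring pairs within 1 interval, 4 shared at least 20 bases, with 119 in Olfr723 and Olfr724, 50 in Olfr1508 and Olfr1507, 36 in Olfr1513 and Olfr1512 and 22 in Olfr162-ps1 and Olfr163-ps1. The median over these 69 was 9 bases. The shared stretch of each of the 2 printed pairs holds 1 TAATTA, the letters bound by homeodomain proteins such as Lhx2, a regulator of OR genes. Binding was not measured, and the part of repeats in these letters was not tested. Because a stretch is identical in both genes of its pair, it is 1 observation per pair. The count of genes with TAATTA given next still includes Olfr169, Olfr170, Olfr172 and Olfr173 separately.

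From 250 bases before to 50 after the TSS, TAATTA was present in 22 of the 87 genes (25.3%), compared with 23.2% of other OR genes and 4.18% of protein-coding genes outside the family. Among the 78 members with an annotated untranslated region the count was 17 (21.8%). TAATTA reads the same on both strands. The letters TCCCNNGGGA, bound by Ebf proteins, the other known regulators of OR genes, were in none of the 87 windows, in 2.20% of other OR genes and in 0.917% of other protein-coding genes. Base composition moved with the first count: the median GC content of the windows was 37.3% for the 87 genes, 37.0% for other OR genes and 55.7% for other protein-coding genes, and its part was not tested. The annotated starts are themselves uncertain, since in 61 of the 87 genes with a RefSeq start the 2 annotations differed by a median of 2.98 kb.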

How the data were processed

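Per the labels, the authors pooled the contacts of both replicates and called the boundaries from the pooled matrix. The submitters' processing notes name the build GRCm38. Each 5 kb bin of the deposited list has a class and a boundary score. Of the aligner, the boundary caller and its window, and the depth, nothing is given in the sources used here. Contact, insulation and compartment data were not used here.

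Genes and TSSs came from GENCODE M21 and sequence from GRCm38, which is of the strain C57BL/6J, so differences of 129P2/OlaHsd are not seen. Promoter starts were also compared with RefSeq. Positions are 1-based. Reads cut from GRCm38 (100 bases, starting every 500 bases) were aligned to it with minimap2 2.31, and those of mapping quality 30 or more counted as unique. Tables were made with pandas 2.3.3, pysam 0.24.0 and scipy 1.17.1. The placement of genes by distance, interval and run was tested on simulated data.

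No p-value was computed, because 1 pooled map has no replicates. Counts were set beside the same counts over other OR genes, other genes or all boundaries. The members, lists and alternatives were chosen with earlier results of these data known. The genes named are those alone or in small runs, the ends of each cluster, the 2 nearest to and the 2 farthest from a boundary in each, those beside an inner boundary, Olfr15, Olfr1507 to Olfr1513 and the nearest other gene of each flanking boundary. Genes sharing an interval with a member, Pnp, Ttc5 and the sequence pairs were named after their values were seen.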

Additional observations from a re-analysis of the deposited data

How the results depend on the processing

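With Strong boundaries alone, 16.1% of the 87 genes had a boundary within 50 kb, 5 boundaries lay inside clusters and the median distance was 161 kb. With boundaries at or above the median score, these were 14.9%, 4 and 168 kb. At other distances, 18.4% of the genes had a boundary within 25 kb and 72.4% within 100 kb. Chromosome 14 alone had 5 boundaries inside clusters and 10 intervals with OR genes, and chromosome 16 alone had 3 and 8. The other alternatives listed for these results, among them protein-coding genes alone, gene bodies, other cluster rules and well-mapped boundaries, moved counts by less than 1.5 times and shares and distances by less than their intervals. For the 8 cluster edges and the 5 edge boundaries those intervals are wide, so that says little of their stability. The intervals of the share within 50 kb (26.7 to 47.8%) and of the median distance (55.5 to 88.6 kb) treat the 87 genes as independent. Their distances were set by 18 boundaries, so these 2 intervals are likely too narrow as a measure of spread. Leaving out a replicate could not be run, because the list was made from both replicates pooled. No paired analysis was possible because there is 1 group and 1 pooled list. Depth is unknown, so an interval without a boundary may hold one that was not called.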
